A study of Mus musculus with 32 samples.

Results

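Hypothalamic neuropeptide genes were described across the brains of mice carrying a B cell lymphoma. The list named 8 genes: Pmch, Hcrt, Avp, Oxt, Agrp, Trh, Gal and Cartpt. Each gene was read from a probe set that carries a single gene symbol, and 7 of the 8 were measured, out of 19938 genes with such a probe set. Agrp was not analysed here. Pmch was chosen by its log2 intensities on these brain arrays, which had been seen to vary strongly, so its own values, and its correlations with other genes, are given as a description, with no test.

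RNA labelled as whole brain came from 20 BALB/c wild-type mice in groups of 5. The groups were BAL17VII brains at day 21 after implantation of 500000 cells, BAL17 brains at day 28, BAL17 brains at day 21, and control brains at day 28 after an injection of PBS. There was no PBS group at day 21, so the day 21 brains were set against PBS brains of day 28. Another 12 arrays held the lymphoma lines themselves, 6 of BAL17VII (a line derived from BAL17) and 6 of BAL17. Each lymphoma model rests on a single line, and the labels do not say whether the line arrays came from separate cultures. P-values measure only the spread between these samples.

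Neuropeptides are short secreted signals that neurons cut from larger precursors and store in dense-core granules. In the hypothalamus, neurons of the lateral area make melanin-concentrating hormone (from Pmch) and orexins (from Hcrt), which act on feeding, sleep and wakefulness. Magnocellular neurons of the paraventricular and supraoptic nuclei make vasopressin (Avp) and oxytocin (Oxt) and release them in the posterior pituitary. Trh drives thyrotropin release, Agrp neurons of the arcuate nucleus drive feeding, and galanin (Gal) and the CART peptide (Cartpt) are made in the hypothalamus and in other regions, Cartpt also in the ventral striatum.

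The values are RMA intensities, here as log2. An array's median intensity lay between 81.7 and 93.0, which is 6.35 to 6.54 as log2 in the brains. Brains of a group correlated at 0.9739 to 0.9892 over all probe sets. One array went against its label: BAL17VII brain 1 had a mean of 5.80 over 8 B lineage genes and of 5.57 over 7 genes of dividing cells. Both lie in the range of the PBS brains, which was 5.63 to 6.0 for B lineage and 5.34 to 5.62 for dividing cells. The other 4 BAL17VII brains had 6.81 to 7.50 for B lineage and 7.43 to 8.09 for dividing cells. Differences of the members that involve the BAL17VII group are therefore also given without it.

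The promoters of Pmch and Cartpt are shown because Pmch had the largest SD over the 20 brains of the 7 members, 1.30, and Cartpt is the member whose test passed. RefSeq gives 250 bases before to 50 bases after the start of each gene, in GRCm38.p6, 5′ to 3′ on the gene's strand. Capitals mark TATAA, the core of the TATA box, and TGACGTCA, the full cAMP response element.
Pmch, chr10:88090822-88091121, + strand: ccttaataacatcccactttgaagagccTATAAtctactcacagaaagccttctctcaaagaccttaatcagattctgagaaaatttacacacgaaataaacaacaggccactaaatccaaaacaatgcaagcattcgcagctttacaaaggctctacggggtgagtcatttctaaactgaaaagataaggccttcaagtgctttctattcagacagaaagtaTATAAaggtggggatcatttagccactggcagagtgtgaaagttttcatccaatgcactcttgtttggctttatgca
Cartpt, chr13:99900634-99900933, - strand: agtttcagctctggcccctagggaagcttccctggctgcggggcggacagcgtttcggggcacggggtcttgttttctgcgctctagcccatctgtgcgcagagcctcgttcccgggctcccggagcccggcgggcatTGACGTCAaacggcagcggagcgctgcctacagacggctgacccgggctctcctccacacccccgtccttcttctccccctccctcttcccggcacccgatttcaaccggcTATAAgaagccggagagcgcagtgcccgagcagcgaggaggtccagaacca
Pmch holds TATAA 2 times and 3 CG pairs in 300 bases, against 26 CG pairs in Cartpt and a median of 7 over all promoters. Searched on both strands, TATAA occurs in 24.9% of 32851 promoters and TGACGTCA in 1.79%. Cartpt holds both motifs, 1 time each, and the pair shares no bases. A match describes the letters and not a site in use.

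Pmch was far above the rest in 2 of 20 brains, both of them BAL17VII brains at day 21. Its log2 intensity was 11.02, 6.70, 9.66, 5.96 and 6.48 in BAL17VII brains 1 to 5. It was 6.50, 6.37, 6.42, 6.75 and 6.50 in BAL17 day 28 brains, 6.34, 6.86, 6.27, 6.56 and 6.73 in BAL17 day 21 brains, and 5.91, 6.76, 6.04, 5.26 and 6.07 in PBS brains. BAL17VII brains 1 and 3 stood alone, at linear intensities of 2075 and 811, while no other brain passed 116. The remaining 3 BAL17VII brains lay among the other groups. Over the 20 brains Pmch had an SD of 1.30, the 24th largest of 11966 genes that passed the intensity filter, whose median SD was 0.191.

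The group means of Pmch follow from those 2 brains. The mean was 7.96 ± 2.24 in BAL17VII brains, 6.51 ± 0.15 in BAL17 day 28 brains, 6.55 ± 0.25 in BAL17 day 21 brains and 6.01 ± 0.54 in PBS brains (SD, n = 5 each). BAL17VII brains were 1.96 above PBS brains on the log2 scale, 1.19 without brain 1, and 0.37 without brains 1 and 3. Against BAL17 day 21 brains the difference was 1.41, then 0.65 without brain 1 and -0.17 without both. BAL17 brains were 0.50 above PBS brains at day 28 and 0.55 above them at day 21, and -0.05 apart between the 2 days. The groups overlapped in each of these comparisons.

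The lymphoma lines also gave a Pmch signal. It was 8.06, 8.06, 8.02, 7.90, 8.23 and 8.28 in BAL17VII cells and 8.44, 8.56, 8.54, 8.25, 8.30 and 8.52 in BAL17 cells. All 12 line arrays were above 18 of the 20 brains and below BAL17VII brains 1 and 3. Since the gene is known for neurons of the lateral hypothalamus, the neighbour on the chromosome was read as well, after the Pmch values had been seen. Parpbp, which encodes a PARP1 binding protein, is the only annotated gene that shares the span of Pmch in RefSeq, and its promoter lies on the opposite strand.

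Parpbp was high in both lines and dim in brains. It averaged 8.02 ± 0.22 in BAL17VII cells and 8.21 ± 0.13 in BAL17 cells (SD, n = 6 each). In brains it averaged 5.81 ± 0.29 with BAL17VII, 6.0 ± 0.10 with BAL17 at day 28, 6.13 ± 0.16 with BAL17 at day 21, and 5.21 ± 0.25 with PBS (SD, n = 5 each). BAL17VII brain 1, with the highest Pmch, had a Parpbp of 5.42, the lowest of its group, and brain 3 had 6.09, the highest of that group. High Pmch thus stood beside high Parpbp in the lines and beside dim Parpbp in the 2 brains. Whether the line signal of the Pmch probe set comes from Pmch or from the overlapping gene was not tested.

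**Figure D1:**
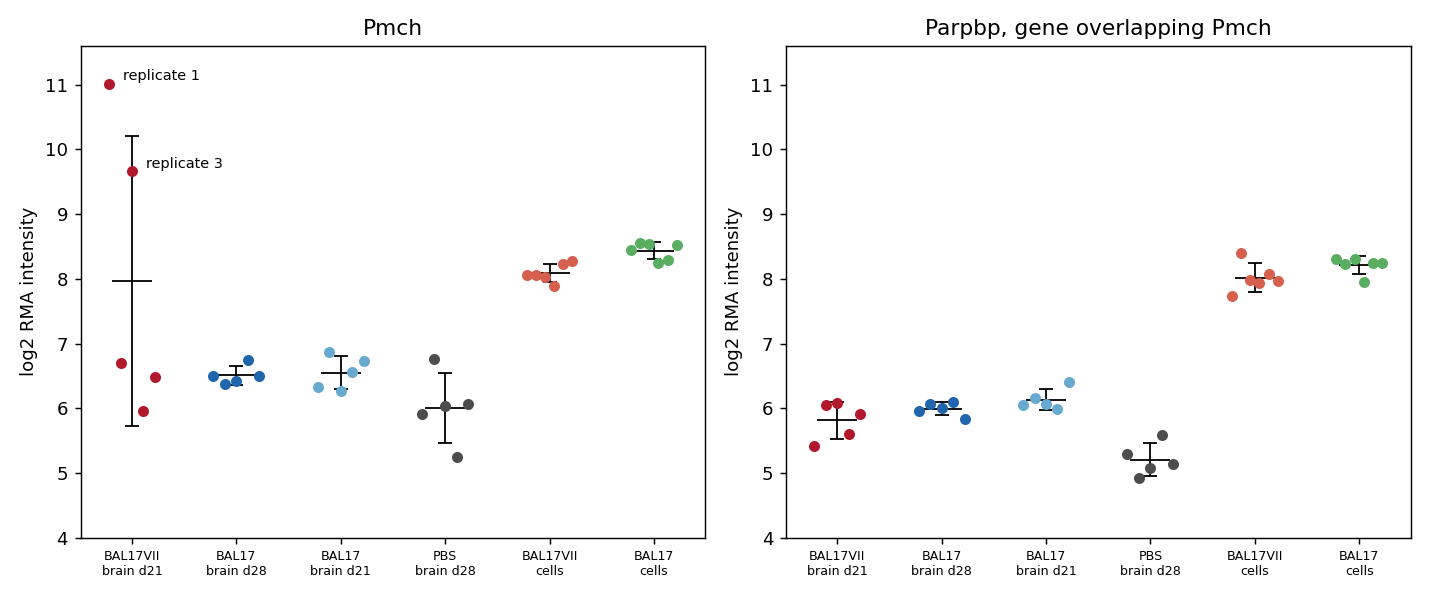
Log2 RMA intensity of Pmch (left) and of Parpbp, the gene that overlaps it (right), on each array, in 4 groups of 5 brains and 2 groups of 6 line arrays. Points are arrays, horizontal bars are group means and error bars are 1 SD. BAL17VII brains 1 and 3 are the only brains above the line arrays for Pmch, while no brain reaches them for Parpbp.

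The other lateral hypothalamic peptide, Hcrt, stayed dim in every brain, Pmch-high brains included. Its level was 6.30, 5.85, 6.0, 5.98 and 5.79 in BAL17VII brains. BAL17 brains had 5.87, 5.93, 5.95, 6.15 and 5.71 at day 28 and 6.02, 5.85, 5.91, 6.07 and 5.76 at day 21, and PBS brains had 5.60, 5.47, 6.0, 5.99 and 5.80. BAL17VII brain 1 was the highest of the 20, but 0 of 20 brains passed its array's median and none passed all line arrays, which ran from 5.74 to 6.43. Hcrt did not pass the intensity filter and was not tested.

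Avp, the vasopressin precursor, was at the same kind of level. It was 6.42, 5.86, 6.12, 6.0 and 5.87 in BAL17VII brains. BAL17 brains had 5.90, 6.02, 6.03, 5.96 and 6.04 at day 28 and 6.15, 5.77, 5.76, 5.96 and 6.0 at day 21, and PBS brains had 5.78, 5.79, 5.86, 6.01 and 5.77. BAL17VII brain 1 was again the highest and the only brain above its array's median and above all line arrays (5.95 to 6.33). Group means differed by -0.001 to 0.21 over the 5 comparisons for Hcrt and by 0.06 to 0.21 for Avp, with overlap in each, and Avp also missed the filter. The upper ends are BAL17VII minus PBS, and without BAL17VII brain 1 they were 0.13 for Hcrt and 0.12 for Avp. Against BAL17 day 21 brains the BAL17VII difference was 0.06 for Hcrt and 0.13 for Avp, and -0.02 and 0.03 without that brain.

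Oxt passed the filter on all 20 brains, but the lines gave the same level. It was 8.11, 7.82, 7.81, 7.60 and 7.53 in BAL17VII brains. BAL17 brains had 7.54, 7.39, 7.67, 7.64 and 7.68 at day 28 and 7.80, 7.63, 7.63, 7.77 and 7.74 at day 21, and PBS brains had 7.58, 7.50, 7.66, 7.79 and 7.32. The 12 line arrays ran from 7.51 to 8.05, so only 1 brain, BAL17VII brain 1, was above all of them, and 3 were below all. In limma, no comparison of Oxt passed an adjusted p of 0.05. The differences were 0.21 ± 0.10 (SE) for BAL17VII minus PBS (adjusted p = 0.24; adjusted p = 0.464 without BAL17VII brain 1) and 0.15 ± 0.10 for BAL17 day 21 minus PBS (adjusted p = 0.241). BAL17VII minus BAL17 day 21 was 0.06 for Oxt, and -0.02 without BAL17VII brain 1.

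Trh, the thyrotropin-releasing hormone precursor, showed no group difference either. It was 6.71, 6.49, 6.54, 6.08 and 6.19 in BAL17VII brains. BAL17 brains had 6.09, 6.41, 6.12, 6.26 and 6.38 at day 28 and 6.38, 6.26, 6.34, 6.43 and 6.08 at day 21, and PBS brains had 6.72, 6.06, 6.51, 6.28 and 6.30. It passed the filter on just 5 brain arrays, 3 with BAL17VII and 2 with PBS, and the lines spanned 5.93 to 6.68. The limma differences ran from -0.12 to 0.10, with adjusted p between 0.452 and 0.938. BAL17VII minus PBS was 0.02 for Trh and -0.05 without BAL17VII brain 1, and BAL17VII minus BAL17 day 21 was 0.10 and 0.03 without it. For Hcrt, Avp, Oxt and Trh, then, the levels in brain overlapped those in cultured lymphoma cells. A level near that of the lines does not separate absent RNA from a probe set that responds poorly.

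Gal, the galanin precursor, was dim but varied. It was 7.03, 5.92, 5.64, 4.86 and 5.31 in BAL17VII brains. BAL17 brains had 4.70, 4.94, 4.98, 4.76 and 5.20 at day 28 and 5.67, 5.90, 5.26, 5.50 and 5.33 at day 21, and PBS brains had 5.29, 6.33, 5.18, 4.93 and 4.92. BAL17VII brain 1 was the highest and the only 1 of 20 above its array's median, and PBS brain 2 came next. BAL17 day 28 brains averaged 4.92 ± 0.20 and BAL17 day 21 brains 5.53 ± 0.26 (SD, n = 5 each), a difference of -0.62 without overlap. It was not tested, because Gal missed the filter. In that comparison limma called 1.5% of the genes tested, which is another measure than overlap. The share of all genes without overlap was not counted. The difference of BAL17VII from PBS brains was 0.42, and 0.10 without BAL17VII brain 1; that from BAL17 day 21 brains was 0.22, and -0.10 without it. Line arrays ran from 4.35 to 5.83, and 4 brains were above all of them.

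**Figure D2:**
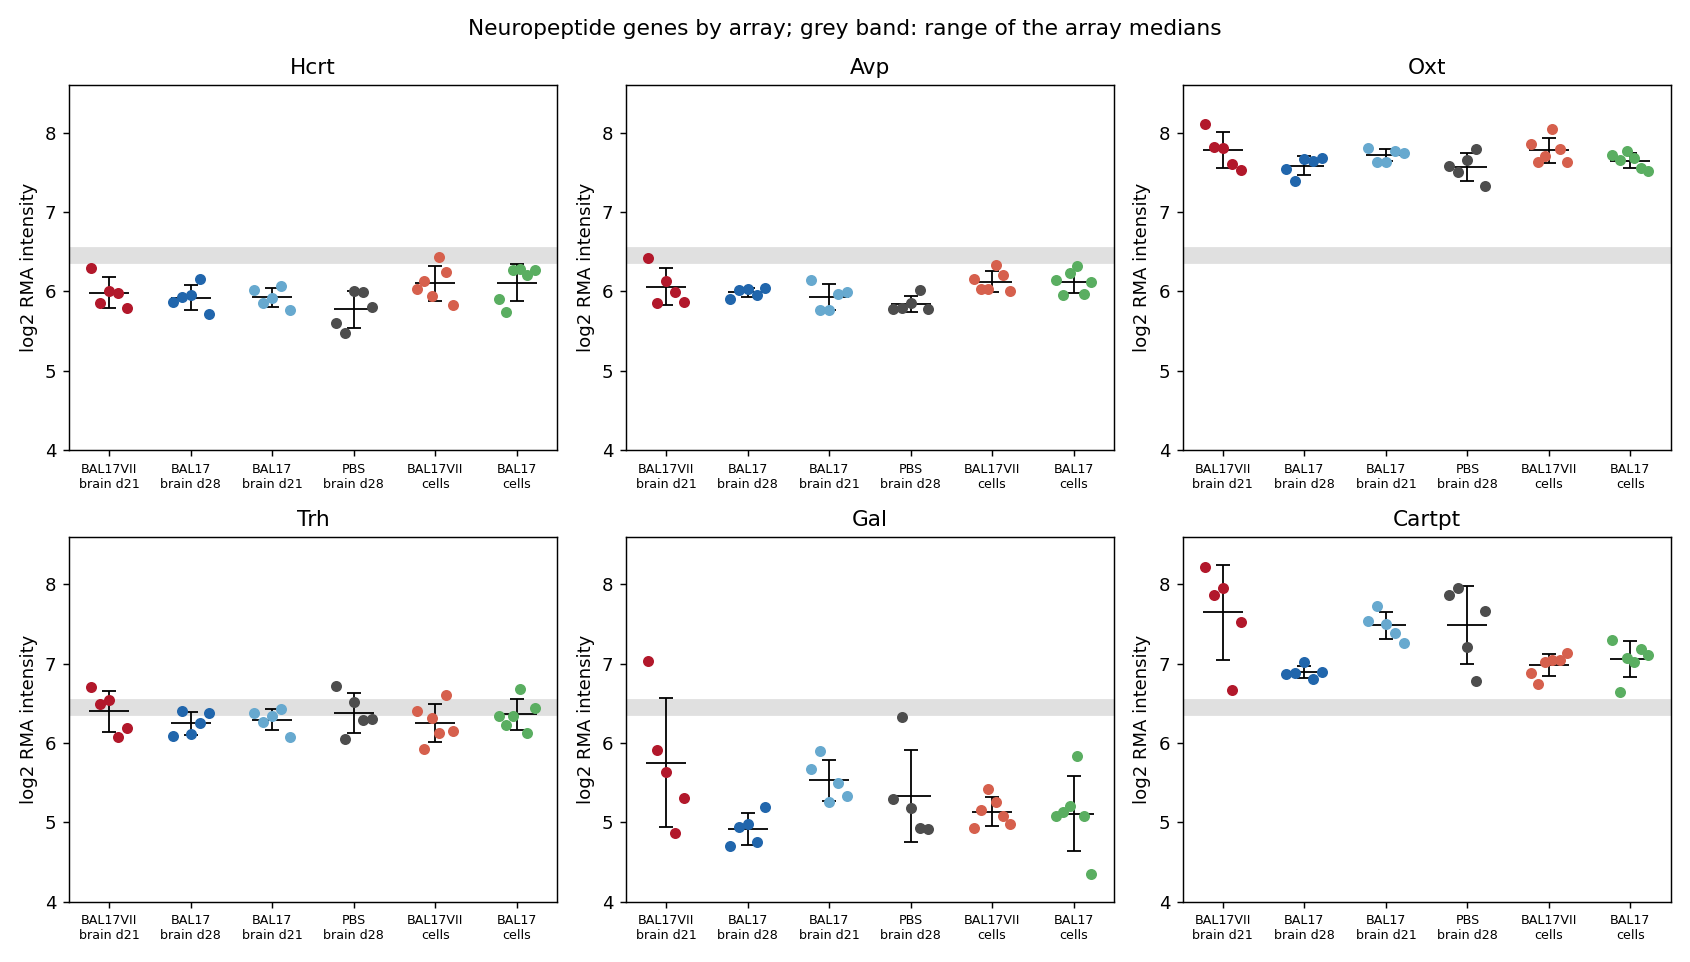
Log2 RMA intensity of the 6 measured genes other than Pmch on each array, by group, with group means and 1 SD. The grey band is the range of the array medians; Hcrt lies under it in all brains, Oxt and Cartpt lie above it, and the BAL17 day 28 brains are the tightest and among the lowest for Cartpt.

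Cartpt was the one member with a difference past the threshold: it was lower in BAL17 day 28 brains than in PBS brains. Its level was 8.22, 7.87, 7.95, 6.66 and 7.53 in BAL17VII brains. BAL17 brains had 6.87, 6.89, 7.02, 6.81 and 6.89 at day 28 and 7.54, 7.73, 7.50, 7.39 and 7.26 at day 21, and PBS brains had 7.86, 7.95, 7.21, 6.78 and 7.66. All 5 BAL17 day 28 brains were low, at the level of the lines (6.64 to 7.30), as were BAL17VII brain 4, BAL17 day 21 brain 5 and PBS brains 3 and 4. The remaining 11 of 20 brains were above all line arrays.

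BAL17 day 28 brains averaged 6.90 ± 0.07 and PBS brains 7.49 ± 0.49 for Cartpt (SD, n = 5 each). The limma difference was -0.60 ± 0.22 (SE), with an adjusted p of 0.0466, and the groups overlapped through PBS brain 4. The call is close to the threshold: over 19 alternative settings the adjusted p ran from 0.0101 to 0.134 and was under 0.05 in 8. It was lost without any single BAL17 day 28 brain (adjusted p = 0.0641 to 0.0852) and without PBS brain 1, 2 or 5 (adjusted p = 0.112, 0.134 and 0.0941).

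Between the BAL17 days the 5 day 28 brains were all below the 5 day 21 brains, which averaged 7.48 ± 0.17. The share of all genes without overlap between these groups was not counted. The Cartpt difference was -0.59 ± 0.22 and did not pass in the fit over all 4 groups (adjusted p = 0.216). In a limma fit of only these groups, which called 325 genes, it did (adjusted p = 0.00417). Cartpt differed from PBS by -0.01 in BAL17 day 21 brains (adjusted p = 0.974) and by 0.15 ± 0.22 in BAL17VII brains (adjusted p = 0.751; difference 0.01 without BAL17VII brain 1). BAL17VII minus BAL17 day 21 was 0.16, and 0.02 without BAL17VII brain 1. Lower Cartpt RNA in whole brain can mean fewer cells that make it or less RNA per cell. It can also follow from the regions each RNA held or from added lymphoma RNA. Bulk arrays cannot tell these apart.

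The intensity filter, above the array's median on at least 5 brain arrays, was passed by 4 of the 7 members, Pmch among them. Of the 3 members tested (Oxt, Trh and Cartpt; limma, adjusted p under 0.05), 0 were called in BAL17VII minus PBS, where 4.96% of all genes were (3.33% higher, 1.64% lower). In BAL17 day 28 minus PBS, 1 of 3 was called, lower, where 30.5% of genes were called (8.85% higher, 21.6% lower). In BAL17 day 21 minus PBS 0 of 3 were called, against 45.2% of genes (13.1% higher, 32% lower). BAL17VII minus BAL17 at day 21 and BAL17 day 28 minus day 21 also had 0 of 3. There 24.2% (17.3% higher, 6.84% lower) and 1.5% (1.01% higher, 0.493% lower) of genes were called. The comparisons with PBS share the same 5 control brains.

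**Figure D3:**
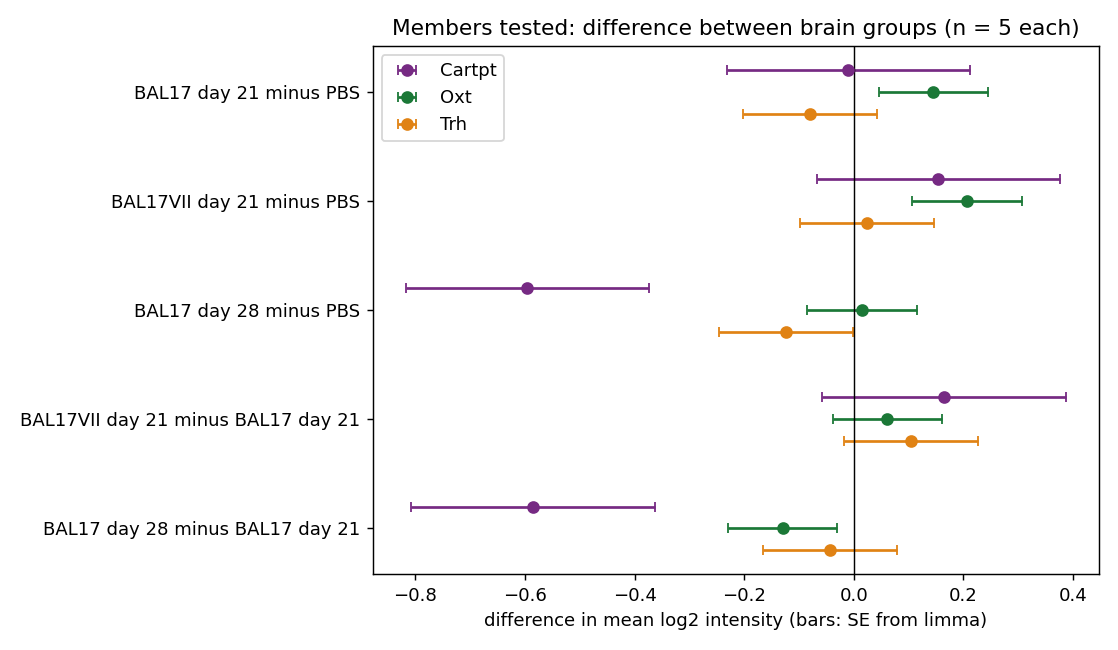
Difference in mean log2 intensity between brain groups for Cartpt, Oxt and Trh, with the standard error from limma (5 brains a group). Only Cartpt in BAL17 day 28 minus PBS, at -0.60, passed the threshold; the equally low point in day 28 minus day 21 did not.

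Cartpt moved beside genes of the striatum. In BAL17 day 28 minus PBS, 6 of 6 striatal markers were called lower, where 21.6% of all genes were. The median difference of these markers was -1.16, against -0.10 over all genes. Among them were Drd1 and Drd2, the dopamine receptors of the projection neurons, at -1.28 ± 0.25 and -1.32 ± 0.27 (SE). Striatum was not alone in this: 8 of 8 thalamic, 6 of 6 choroid plexus and 5 of 5 oligodendrocyte markers were lower as well, while 0 of 5 cortical markers were called. The part of any region in the Cartpt difference was not tested. Over the 20 brains the genes most like Cartpt were Cpne7 (r = 0.94), Isl1 (r = 0.93) and Gpx3 (r = 0.91), given as a description. After removal of the group means they were Slc10a4, Alcam and Cpne7 (r = 0.91, 0.90 and 0.90). Isl1, a LIM homeobox factor used by striatal as well as arcuate neurons, was also lower in BAL17 day 28 than in PBS brains, by -0.93 ± 0.26 (adjusted p = 0.0121).

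The wider set of 22 hypothalamic peptides had 15 members in the test. In BAL17 day 28 minus PBS 0 were higher and 4 lower (21.6% of all genes were lower), with a median of -0.27 against -0.10 over all genes. These were Tac1 (substance P, -1.37 ± 0.32), Penk (enkephalin, -0.98 ± 0.19), Adcyap1 (PACAP, -0.53 ± 0.16) and Grp (gastrin-releasing peptide, -0.49 ± 0.17). Tac1 and Penk are also the peptides of the striatal projection neurons, and they were lower at day 28 than at day 21 with BAL17 too, by -1.46 ± 0.32 and -1.09 ± 0.19, without overlap. B lineage genes were higher beside these falls, with a list mean of 7.76 ± 0.11 in BAL17 day 28 brains and 5.90 ± 0.15 in PBS brains (SD, n = 5 each). The part of the added lymphoma RNA in them was not tested.

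In BAL17 day 21 minus PBS, 2 of 15 peptides were lower, against 32% of all genes: Npy (neuropeptide Y, -0.47 ± 0.13) and Tac2 (neurokinin B, -0.79 ± 0.20, without overlap). In BAL17VII minus PBS 0 of 15 were called. Against BAL17 at day 21, BAL17VII brains were higher in 3 of 15, against 17.3% of all genes. These were Npy (0.63 ± 0.13), Tac2 (0.89 ± 0.20, without overlap) and Sst (somatostatin, 0.66 ± 0.16). The count of other peptides and factors called there was 3, and also 3 without BAL17VII brain 1.

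Of the 19 peptide receptors 8 were tested. 1 of 8 was called in BAL17 day 21 minus PBS, where 45.2% of all genes were, and 1 of 8 in BAL17 day 28 minus day 21, where 1.5% were. Npy1r, a receptor of neuropeptide Y, was lower in BAL17 day 21 brains than in PBS brains (-0.44 ± 0.08) and higher in BAL17 at day 28 than at day 21 (0.36 ± 0.08), both without overlap. In the other 3 comparisons 0 of 8 were called, against 4.96% to 30.5% of all genes. Mchr1, the receptor of melanin-concentrating hormone, was not called in any.

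Of 11 genes that cut, amidate and store peptides, 7 were lower and 0 higher in BAL17 day 21 minus PBS, where 32% of all genes were lower. Their median was -0.27, against -0.11 over all genes. Without overlap were Pcsk1 (a prohormone convertase, -0.71 ± 0.16), Pam (the amidating enzyme, -0.46 ± 0.08) and Chgb (a granule protein, -0.27 ± 0.08). In BAL17 day 28 minus PBS 4 of 11 were lower (21.6% of all genes), Chga (-0.50 ± 0.12) and Scg2 (-0.37 ± 0.12) without overlap. BAL17VII brains had 6 of 11 higher than BAL17 brains at day 21 (17.3% of all genes), Pam (0.49 ± 0.08) and Pcsk1n (0.39 ± 0.10) without overlap, and 0 of 11 called against PBS. Neuronal and glial markers moved in the same directions. In BAL17 day 21 minus PBS 6 of 7 neuronal, 5 of 6 astrocyte and 4 of 5 oligodendrocyte markers were lower, and 7 of 7 B lineage genes were higher. In BAL17VII minus BAL17 at day 21, 4 of 7 neuronal, 5 of 6 astrocyte and 4 of 5 oligodendrocyte markers were higher, and 6 of 7 B lineage genes were lower. The BAL17VII counts of this paragraph include BAL17VII brain 1 and were not repeated without it. Without that brain 1761 genes instead of 2892 were called in BAL17VII minus BAL17 at day 21. The part of neuronal, glial and B lineage genes in the peptide and granule gene differences was not tested.

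Hypothalamic transcription factors were read as another list, of which 8 of 17 passed the filter. Their list mean over 17 genes was 5.97 to 6.31 in the BAL17VII brains, 6.03 to 6.13 and 6.12 to 6.26 in BAL17 brains at day 28 and day 21, and 6.03 to 6.14 in PBS brains. The line arrays had 6.07 to 6.39, so these factors as a list were no brighter in brain than in lymphoma cells. For that reason the list mean cannot show how much hypothalamus each RNA held. Single factors were brighter in many brains than in the lines, Lhx9 and Isl1 among them (values below). The 22 other peptides were brighter in brain, at 6.63 to 7.48, against 5.87 to 6.18 in the lines. Of 8 factors tested, Otp, Nr5a1 and Hmx2 were higher and Lhx9 lower in BAL17 day 21 minus PBS (all genes: 13.1% higher, 32% lower). Their differences were 0.21, 0.31, 0.27 and -0.38, Hmx2 alone without overlap. Nr5a1 was also higher in BAL17 day 28 minus PBS (0.24 ± 0.08), where Isl1 was lower. There 8.85% of all genes were higher and 21.6% lower. In the other 3 comparisons 0 of 8 were called, against 1.5% to 24.2% of all genes.

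The 2 Pmch-high brains were then compared with the other 18, gene by gene and without a test. Of the 7 members only Pmch was above all 18 in both, which was fixed in advance because Pmch picked these brains. No other member was. Both brains were above all 18 in 253 of all 19938 genes (1.27%). The same held for 4 of 22 other peptides. Nts (neurotensin) was at 9.65 and 8.78 in BAL17VII brains 1 and 3, against at most 8.44 elsewhere. Ucn3 (urocortin 3) was at 6.54 and 6.02, against at most 5.96. Penk and Nucb2 cleared the others by less, at 12.04 and 12.09 against 12.03, and at 9.17 and 9.28 against 9.15. Of the granule genes 2 of 11 did so as well (Pam and Scg2), which is the same 18.2% as for the peptides, and 1 of 6 astrocyte markers, Gfap. None of the 17 hypothalamic factors and none of the 19 receptors did. The factors as a list were no brighter in brain than in the lines, so their count cannot show which tissue was taken. Of the single factors, Lhx9 was at 6.23 and 6.43 in BAL17VII brains 1 and 3. It was at 6.32 to 7.06 in the other 18 and 5.85 to 6.26 in the lines. Isl1 was at 7.15 and 6.99, against a median of 6.07 in the other 18 (5.20 to 7.17) and at most 5.79 in the lines. The part of the tissue taken in these levels was not tested.

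Other regions moved beside Pmch. BAL17VII brains 1 and 3 had the 2 lowest cerebellar means of the 20, at 7.86 and 8.19, against 8.20 to 9.73 elsewhere. Their midbrain and hindbrain means, 6.79 and 6.37, were among the 3 highest. Slc6a3, the dopamine transporter of midbrain neurons, was at 8.83 and 7.82 in them, against at most 7.61 in the other brains. It was the only 1 of the 9 genes in that list with both brains above the other 18, and 3 of the 9 passed the filter. Th was at 7.59 and 6.90, against at most 6.98. Slc6a2 went the other way, at 5.55 and 5.52, against at least 5.56. Slc6a3 was also 6.71 to 7.06 in BAL17VII cells and 9.01 to 9.21 in BAL17 cells, so the lymphoma lines give signal on this probe set as well.

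Pituitary genes and Pmch were high together in only some brains. The mean over 10 of them was 6.84, 8.38, 8.04, 5.77 and 7.85 in BAL17VII brains 1 to 5, and 5.69 to 5.79, 5.66 to 5.91 and 5.80 to 6.47 in BAL17 day 28, BAL17 day 21 and PBS brains. BAL17VII brains 2 and 5 were thus high for pituitary without high Pmch. Prl (prolactin) was above 11.9 in 4 BAL17VII brains, including both Pmch-high brains, and 5.57 in brain 4. The labels name whole brain as the source and a frozen tissue section in the extraction, without saying which parts each RNA held, and the share of tissue taken cannot be told apart from changes in the cells.

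**Figure D4:**
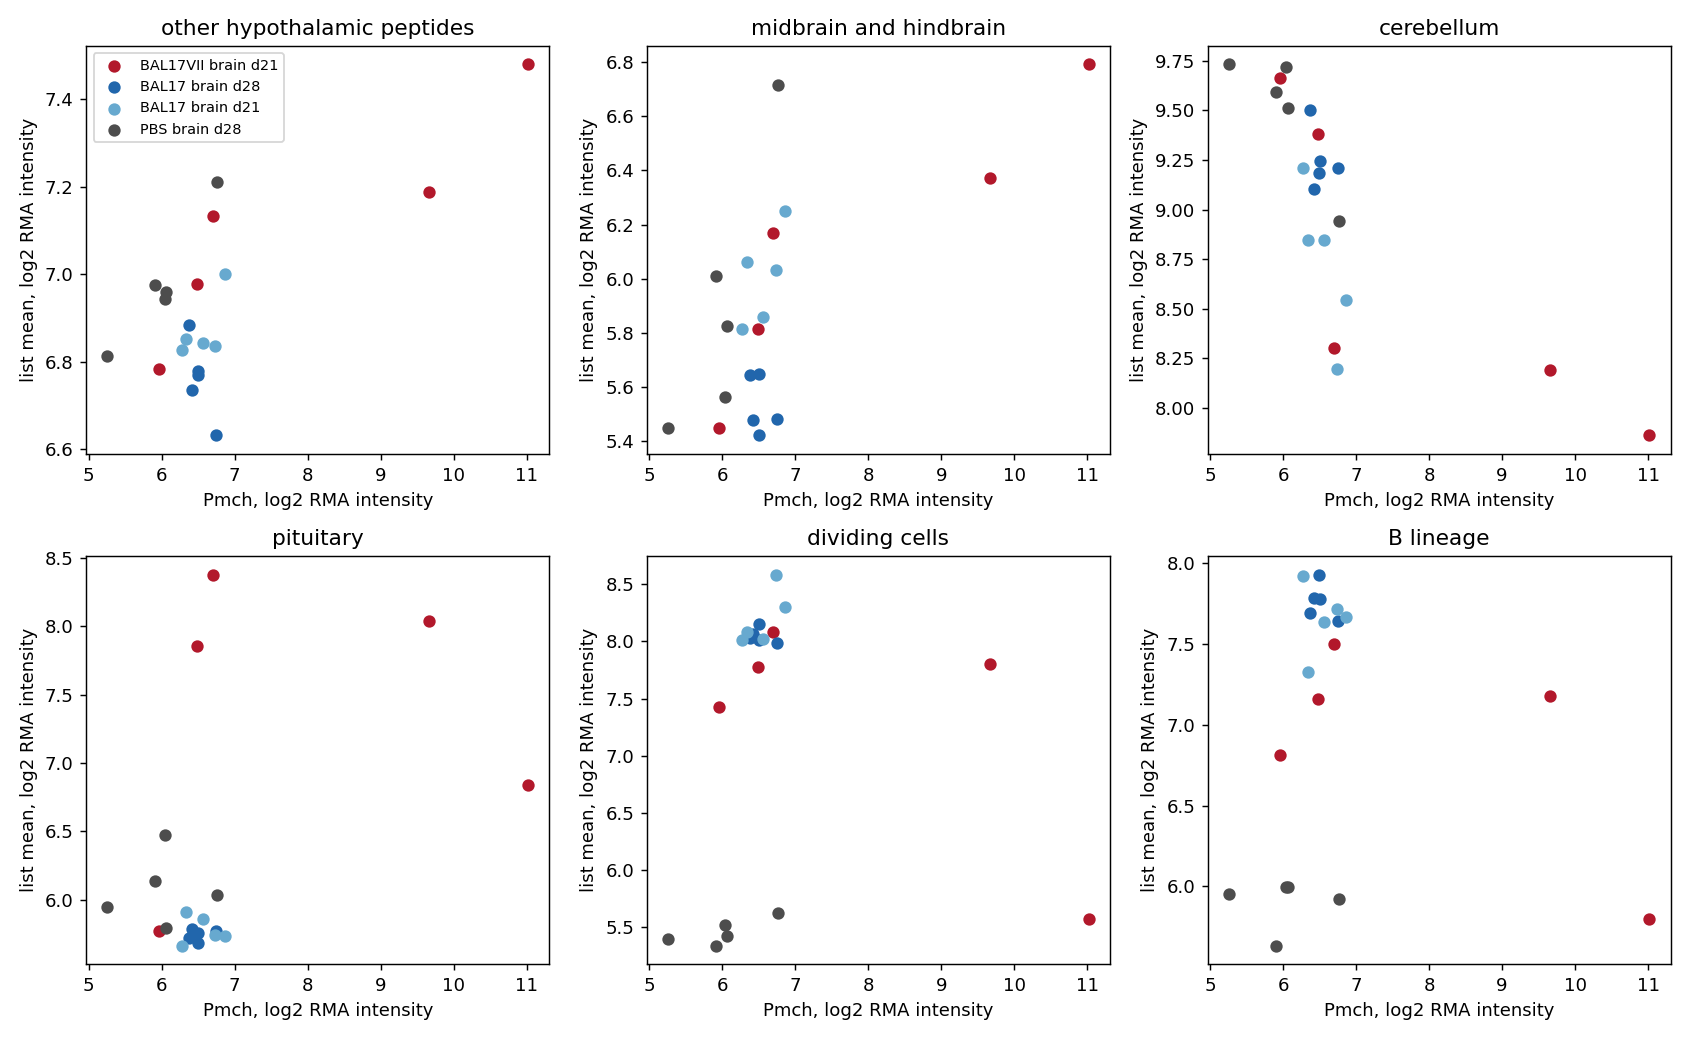
Mean log2 intensity of 6 gene lists in each of the 20 brains (vertical axes) against log2 Pmch (horizontal axis), coloured by group. The 2 brains at the right are BAL17VII brains 1 and 3: low for cerebellum, above the BAL17 and PBS brains for pituitary (as are BAL17VII brains 2 and 5), and apart from each other for B lineage and dividing cells, where brain 1 lies with the PBS brains.

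Because Pmch falls into clusters of 2 and 18 brains, its relation to 17 list means was described within the 18 alone, with group means removed. The groups of brains follow from the Pmch values themselves, so no test is attached. Pearson's r was 0.81 with midbrain and hindbrain, 0.73 with other hypothalamic peptides, -0.72 with cerebellum, 0.62 with dividing cells and 0.25 with the hypothalamic factors. Spearman's rho was 0.58, 0.52, -0.73, 0.70 and 0.15 in the same order. Without the 2 farthest brains, PBS 2 and 4, r was lower with midbrain and hindbrain (0.58) and other peptides (0.49), and no lower in size with cerebellum (-0.77) and dividing cells (0.75). Of the remaining lists the largest r was 0.67 with striatum (rho = 0.41), then 0.54 with peptide processing and granules (rho = 0.18). Without PBS brains 2 and 4 these were 0.20 and 0.12. Pituitary had r of 0.40 (rho = 0.32), and 0.63 without those brains.

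Among the members themselves 21 pairs were compared over 20 brains, with group means removed. Avp and Oxt, the pair of magnocellular hormones, both at the level of the lines, were correlated (r = 0.72, permutation p = 0.0017, adjusted p = 0.0357; rho = 0.69, permutation p = 0.00187, adjusted p = 0.0393). Without BAL17VII brain 1 and BAL17 day 21 brain 1 the r was 0.54 and the adjusted permutation p 0.262, so the relation rests on them. Avp, like Hcrt and Gal, missed the intensity filter that limited the limma tests. With arrays centred on their median 0 pairs were called. Gal and Cartpt had the higher r of 0.75 (rho = 0.67) with an adjusted permutation p of 0.0902, and 0.71 without BAL17VII brain 1 and PBS brain 2. Within the 18 brains Pmch had r of 0.73 with Gal and 0.72 with Cartpt, and 0.52 and 0.50 without PBS brains 2 and 4, as a description.

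The genes most like Pmch over the 20 brains were ranked by Pearson's r as a description that rests on the 2 high brains. They were Slc6a3, Sh3bgrl, Ccdc160 and Morf4l1 (r = 0.82 each), Rhob (0.80), P2ry1, Ndst4 and Dleu7 (0.79 each), Nts (0.78) and Lmo3 (0.77). With group means removed P2ry1 came first (r = 0.93), ahead of Prkd1 (0.88), and 3 of the 10 were shared. P2ry1, a purinergic receptor, was at 8.27 and 7.67 in BAL17VII brains 1 and 3 and at 6.63 to 7.46 in the others. For Oxt the most like were Celf6 and Dleu7 (r = 0.72 each) and Shh (0.70), and for Trh they were Ptpro (0.76), Rgma (0.70) and Insyn2a (0.68). With group means removed these became Krtap1-3, Lhfpl4 and Fzd9 for Oxt and Fzd9, Ptpro and Six3 for Trh.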

How the data were processed

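RNA of 20 brains and 12 line arrays was hybridised to 1-colour Affymetrix mouse gene arrays. The deposited values are intensities on a linear scale (2.72 to 17825). The submitters' processing notes name RMA and Affymetrix Expression Console; versions, annotation and build are not given in the sources used here. Whether brains and lines were normalized together is not given either, so levels set across them hold only as far as that step allows. Of 35556 probe sets, 21789 carry 1 symbol, 1621 several and 12146 none; 21698 of the first were found in the RefSeq gene table.

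Log2 was taken here. For each member the probe set with the highest mean over 32 arrays was used (each had 1). A gene was tested where its probe set passed the array median on at least 5 brain arrays. limma 3.58.1 (R 4.3.3) was run on log2 values of all 20 brains by group, with Benjamini-Hochberg adjustment over 11966 genes and a threshold of 0.05. Lines entered no test. The limma step and the correlations were tested on simulated data. Correlations used 100000 shuffles within groups, 2-sided, adjusted over 21 pairs (7 members); those of Pmch, also with 17 list means, are given without a test because its values chose it, which departs from the planned test. The number of arrays limits the precision.

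Members and gene lists were chosen with earlier results of these data known. Genes named are the members, called genes of a list without overlap (up to 3 each way), the genes most like Pmch (10) and the other tested members (3), and regional markers; Parpbp, Npy, Sst, Grp, Otp, Nr5a1, Lhx9, Mchr1 and the genes above all other brains were named after their values were seen. Replicate numbers were not used as pairs in the main tests. Of 30 same-number correlations between groups, 11 passed 0.1. Those of replicate 4 were positive between all groups (0.20 to 0.42). Replicate 2 had 0.22 to 0.55 among the BAL17 and PBS groups, and -0.13 to -0.01 with BAL17VII. Whether same-number brains share a step was not tested, and the main tests ignore it. A fit with the replicate as a block is among the alternatives. The share of all genes without overlap between 2 groups was not counted in any comparison. Alternatives covered normalization, filter, offset, weights, moderation, samples fitted and single arrays left out.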

Additional observations from a re-analysis of the deposited data

Results flagged for a closer look

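Pmch gave signal in data outside the brain comparisons. Its mean over the 12 line arrays was 8.26, and all 12 were above every PBS brain.

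Gal was at 6.33 in PBS brain 2, far from the other 4 PBS brains (4.92 to 5.29) for the spread of that group. Chance alone puts about 1 in 20 groups past the same limit. The cause was not tested.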

How the results depend on the processing

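Cartpt in BAL17 day 28 minus PBS, the only member difference called, stayed negative under all 19 alternatives that could test it (-0.77 to -0.48). The call was lost with a second quantile normalization, without the filter and with trended robust moderation (0 members called under each). A filter at percentile 75 also gave 0 members called, but Cartpt did not pass that filter and was not tested there. Members called ran from 0 to 1 when single arrays were left out. With the fit limited to the groups compared, BAL17 day 28 minus day 21 called 1 member and 4 other hypothalamic genes.

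Counts of all genes called moved as follows. With a filter at percentile 75 they were 3292 (BAL17 day 21 minus PBS), 352 (BAL17VII minus PBS) and 2347 (BAL17 day 28 minus PBS), where fewer genes were tested. Array weights gave 936 in BAL17VII minus PBS and 616 in BAL17 day 28 minus day 21. Fits of only the groups compared gave 257 in BAL17VII minus PBS, 1703 in BAL17VII minus BAL17 day 21 and 325 in BAL17 day 28 minus day 21. Quantile normalization and median centring gave 289 and 102 in that last comparison, which had 180. Without BAL17VII brains 1 and 3, chosen after seeing the data, BAL17VII minus BAL17 day 21 had 1140 instead of 2892.

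Other hypothalamic genes called (peptides and factors) in BAL17 day 21 minus PBS numbered 6, and 1 with the filter at percentile 75, 10 with array weights and 10 with the replicate block. In BAL17 day 28 minus PBS they numbered 6, and 2 with that filter and 10 in a fit of only those groups. BAL17VII minus PBS had 0, and 1 without a filter and 1 with array weights; BAL17VII minus BAL17 day 21 had 3, and 5 with array weights. The replicate block kept Cartpt in BAL17 day 28 minus PBS (adjusted p = 0.0142) and moved no count of members; same-number correlations ran from -0.42 to 0.55.

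Leaving out single arrays gave 4668 to 5945 genes and 5 to 11 other hypothalamic genes in BAL17 day 21 minus PBS, with 11 without BAL17 day 21 brain 2. BAL17VII minus PBS had 246 to 1321 genes and 0 to 1 others, lowest without BAL17VII brain 2 (246) or 3 (277), highest without brain 4 (1321), and 390 and 363 without PBS brain 4 or 5. BAL17 day 28 minus PBS had 2627 to 3625 and 4 to 6. BAL17VII minus BAL17 day 21 had 1761 to 3884 and 3 to 4, the 1761 without BAL17VII brain 1. BAL17 day 28 minus day 21 had 45 to 276 and 1 to 2, the 45 without BAL17 day 28 brain 1.

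The 1 called member pair became 0 without the 2 brains farthest from the median, with median centring, without the BAL17VII, BAL17 day 21 or PBS group, and without the 2 Pmch-high brains; with no centring on group means there were 9. Against Pmch 5 lists passed the threshold over all 20 brains and 0 with Spearman's rho, without the 2 farthest brains, or without the BAL17VII or the PBS group. Pmch was chosen by these values, so those passes support nothing and are not used. Hcrt, Avp and Gal lie at or under the array medians in nearly all brains, which limits what their differences can show. The causes of these changes were not tested.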
